A study of Mus musculus with 9 samples.

Results

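The genes described here are 10 genes that specify mesoderm and endoderm in the early embryo, *Gata3*, *Gata4*, *Gata5*, *Gata6*, *Foxa2*, *T*, *Mixl1*, *Gsc*, *Cer1* and *Lefty1*, given as a list of names of 1 developmental group. The rule of the list uses no measured value, but the list was chosen with earlier results of these data known. The CpGs of these genes were taken within 1 kb on each side of the transcription start site (TSS), in the gene body and in flanks of 10 kb, which gave 5300 CpGs out of 13328402 and 10 genes out of 14278 protein-coding genes. These totals, and the terms all genes and all CpGs below, cover only the part of the genome where the wild type (WT) has values. DNA methylation was measured by whole genome bisulfite sequencing (WGBS), in which unmethylated cytosines are converted and methylated cytosines stay as they were, so that the unconverted share of reads over a CpG is its methylation level. The samples were mouse embryonic stem cells (ESCs) of the J1 line, strain 129S4/SvJae, grown without feeder cells on gelatin in medium with serum and LIF. WT cells were compared with cells that lack *Dnmt3a* (*Dnmt3a* KO) or *Dnmt3b* (*Dnmt3b* KO), the genes of the 2 de novo DNA methyltransferases. For each of the 3 genotypes the authors merged 3 libraries into 1 table, so that every level given here is 1 pooled value per genotype, no test across replicates could be made, and a genotype cannot be told apart from the cell line that carries it.

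Mesendoderm is the progenitor population of the primitive streak from which mesoderm and definitive endoderm arise. The ligand NODAL induces it through activin receptors, SMAD2 and SMAD3 and their DNA-binding partner FOXH1, and ESCs turn on the same genes when they leave pluripotency along this route. GATA factors and FOXA2 are zinc finger and forkhead transcription factors of endoderm, heart and other lineages, T (Brachyury) is the T-box factor of the streak and the notochord, MIXL1 and GSC are homeobox factors induced by NODAL, and CER1 and LEFTY1 are secreted antagonists that limit NODAL signalling. In ESCs many promoters of such regulators lie in CpG-rich stretches that stay free of methylation, whereas CpG-poor promoters are usually methylated. DNMT3A and DNMT3B add methylation to unmethylated DNA, and DNMT1 copies it after replication.

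The sequences upstream of the TSS show both kinds of promoter in this group. The 300 bases before the TSS are printed for the 2 CpG-poor genes, *Cer1* at chr4:82531053-82531352 on the minus strand and *Lefty1* at chr1:182864853-182865152 on the plus strand, and for the 2 homeobox genes, *Mixl1* at chr1:182627166-182627465 and *Gsc* at chr12:105711538-105711837, both on the minus strand. They were read from the mm9 reference and run 5′ to 3′ along the strand of the gene, with each CpG in capitals.

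Cer1: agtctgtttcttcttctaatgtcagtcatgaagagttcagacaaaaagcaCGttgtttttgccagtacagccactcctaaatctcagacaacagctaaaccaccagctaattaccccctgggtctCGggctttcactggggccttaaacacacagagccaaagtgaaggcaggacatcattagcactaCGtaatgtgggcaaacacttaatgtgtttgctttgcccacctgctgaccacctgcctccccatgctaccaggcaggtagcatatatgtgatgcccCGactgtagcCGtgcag
Lefty1: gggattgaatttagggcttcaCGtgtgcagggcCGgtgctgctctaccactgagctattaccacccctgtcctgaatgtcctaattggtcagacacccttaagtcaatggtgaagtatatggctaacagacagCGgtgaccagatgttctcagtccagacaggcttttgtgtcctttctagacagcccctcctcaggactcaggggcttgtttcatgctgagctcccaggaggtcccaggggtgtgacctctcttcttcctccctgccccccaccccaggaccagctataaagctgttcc
Mixl1: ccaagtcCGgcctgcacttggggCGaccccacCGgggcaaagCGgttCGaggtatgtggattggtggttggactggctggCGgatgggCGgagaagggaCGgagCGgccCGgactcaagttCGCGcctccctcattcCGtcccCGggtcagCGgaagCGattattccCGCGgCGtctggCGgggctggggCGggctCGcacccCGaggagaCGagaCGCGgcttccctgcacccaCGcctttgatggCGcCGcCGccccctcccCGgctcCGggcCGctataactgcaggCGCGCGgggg
Gsc: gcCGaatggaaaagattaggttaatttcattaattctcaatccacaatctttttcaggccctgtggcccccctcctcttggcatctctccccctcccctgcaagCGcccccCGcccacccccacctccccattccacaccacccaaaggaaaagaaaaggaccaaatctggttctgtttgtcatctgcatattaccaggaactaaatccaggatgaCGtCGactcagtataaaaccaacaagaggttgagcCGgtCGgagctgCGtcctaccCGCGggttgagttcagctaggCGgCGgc

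*Cer1* holds 5 CpGs and *Lefty1* 3 CpGs in these bases, against 36 in *Mixl1* and 12 in *Gsc*, and the median over all genes was 11 with quartiles of 3 and 21. The eight-letter FOXH1 motif TGTGGATT was found, on either strand, upstream of 126 of 14278 genes (0.883%), and 2 of the 10 genes had it. In *Mixl1* it lies on the strand of the gene from -246 to -239 bp, and in *Gsc* on the opposite strand from -262 to -255 bp. The TATA box letters TATAAA were present upstream of *Gsc* at -73 to -68 bp, of *Lefty1* at -14 to -9 bp and, on the opposite strand, of *Foxa2* at -284 to -279 bp, against 14.1% of all genes. Searches on both strands for a T-box motif (TCACACCT), a FOX motif (TGTTTAC) and a GATA motif (AGATAA) found these letters upstream of 0 of the 10 genes and of 1.00%, 3.31% and 10.8% of all genes. No motif overlapped another, and a match of letters is a description of the sequence only.

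Over the 5300 CpGs the mean depth was 21.5 reads in WT, 19.6 without *Dnmt3a* and 21.7 without *Dnmt3b*, and 95.5% of the reference CpGs of the 10 loci were covered by at least 3 reads per genotype and were used. Each KO was visible in its own gene, since 12 consecutive CpGs of *Dnmt3a* had no read in *Dnmt3a* KO and 30 consecutive CpGs of *Dnmt3b* had none in *Dnmt3b* KO ESCs, where the other tables had means of 16.8 to 31.5 reads. Of the ESC regulators with a value in WT, *Pou5f1*, *Sox2*, *Klf4* and *Sall4* had 3.36% methylation or less around the TSS and *Esrrb* had 94.1% at its annotated TSS. WT values were at hand for chromosomes 1 to 3 and 10 to 19 and for chromosome 4 up to position 140865857, and genes elsewhere are given for both KOs only. Intervals given for differences are 95% Newcombe intervals of the difference in the share of methylated reads, and they cover at most counting error. Each read over each CpG was counted as independent, although 1 read can cover several CpGs and copies made by PCR may remain. The intervals can therefore be too narrow even for counting error.

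Around the TSS, 8 of the 10 genes were under 20% methylation in WT, against 51.8% of all genes, and both secreted antagonists of NODAL had more. The mean level of the CpGs within 1 kb of the TSS was 1.21% to 18.8% for the GATA factors, 16.1% for *Foxa2*, 2.96% for *T*, 11.97% for *Mixl1* and 4.51% for *Gsc*, against 29.7% for *Lefty1* and 91.4% for *Cer1*. The antagonists also had the lowest CpG density, with a ratio of observed to expected CpGs of 0.210 in *Lefty1* and 0.245 in *Cer1*, whereas the other 8 genes had 0.583 to 0.890. In *Dnmt3a* KO ESCs all 10 genes were at or below 7.62% except *Cer1* at 45.2%, and in *Dnmt3b* KO ESCs the range was 0.0603% to 90.6%. A level was called lower when its mean was more than 20 percentage points below that of WT. By this limit *Cer1* and *Lefty1* fell in *Dnmt3a* KO, 2 of 10 genes, while 41.3% of 14078 genes with at least 5 CpGs there did so. Only levels of 20% or more in WT can pass this limit, and among all genes with such a level 85.7% fell. In *Dnmt3b* KO ESCs 0 of 10 genes passed it, against 2.63% of all genes. The median difference from WT for the 10 genes was -8.68 percentage points without *Dnmt3a* and -1.93 without *Dnmt3b*, and for all genes it was -12.6 and -3.80.

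**Figure D1:**
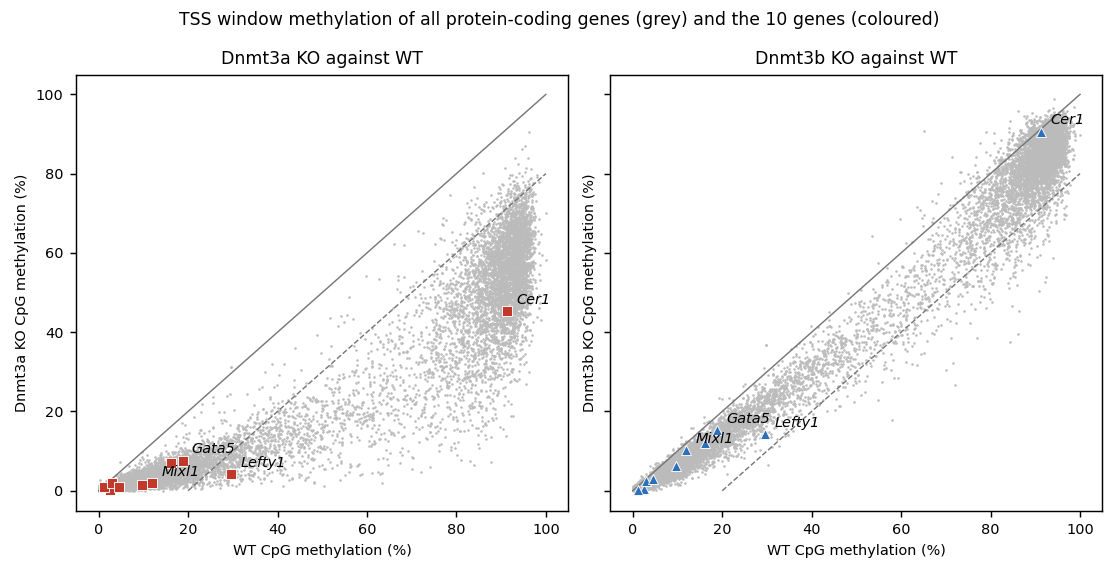
Mean CpG methylation within 1 kb of the TSS in WT (x axis, %) against *Dnmt3a* KO (left, y axis, %) and *Dnmt3b* KO (right, y axis, %), each grey point a protein-coding gene and each coloured point 1 of the 10 genes. The solid line marks equal levels and the dashed line 20 percentage points less than WT. In *Dnmt3a* KO *Cer1* and *Lefty1* lie under the dashed line and in *Dnmt3b* KO no coloured point does.

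The GATA factors bind the sequence they are named after and direct, among others, endoderm, heart and trophoblast fates. *Gata3* lies at chr2:9778705-9800227 on the minus strand, and the mean level of the 84 CpGs around its TSS was 2.53% in WT, 0.168% without *Dnmt3a* and 0.439% without *Dnmt3b*. Both KOs were thus close to 0 at this TSS, and the differences in read share were -2.47 percentage points (interval -3.35 to -1.72) and -2.26 (-3.15 to -1.48). An outer annotated start of *Gata3*, at position 9811661, had 15.9% in WT, 7.39% without *Dnmt3a* and 14.4% without *Dnmt3b* over 62 CpGs. The upstream flank of the gene as placed above was among the lowest of all genes in WT, with 18.6% over 309 CpGs and 0.673% of all genes lower still. The genes 4930412O13Rik and 9230102O04Rik, annotated as protein-coding, lie in that flank and the non-coding Gm13256 overlaps the start of *Gata3*, so that the CpGs belong to several annotated genes.

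*Gata4*, at chr14:63817759-63864108 on the minus strand, had 9.66% in WT, 1.501% without *Dnmt3a* and 6.24% without *Dnmt3b* over 94 CpGs. The read share differed from WT by -11.1 percentage points in *Dnmt3a* KO (interval -13.0 to -9.35). An outer annotated start of *Gata4*, at position 63890529, was unlike this TSS, with 93.5% over 27 CpGs in WT, 46.3% without *Dnmt3a* and 88.8% without *Dnmt3b*. The choice of TSS therefore decides whether *Gata4* passes the limit in *Dnmt3a* KO. In the body, more than 1 kb from the TSS, exons and introns of *Gata4* differed in level, with 44.6% over 119 exonic CpGs and 90.6% over 440 intronic CpGs in WT. The same order was seen in *Dnmt3a* KO, with 19.7% and 50.5%. The body of *Gata4* also holds a low stretch from +4 to +5 kb, with 12.7% over 60 CpGs in WT. How far such stretches account for the exonic level was not tested.

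*Gata5*, at chr2:180059838-180069404 on the minus strand, had the highest level of the 4 GATA factors around the TSS. It was 18.8% in WT, 7.62% without *Dnmt3a* and 15.3% without *Dnmt3b* over 133 CpGs. The methylation lay upstream, with 39.6% from -1 to 0 kb and 6.66% from 0 to +1 kb in WT. From +1 to +2 kb, *Gata5* fell in both KOs, from 77.7% to 31.8% in *Dnmt3a* KO and to 53.3% in *Dnmt3b* KO ESCs (interval -29.9 to -16.2 for *Dnmt3b* KO). Gm14318 overlaps *Gata5* and starts in that bin, and the reads were not assigned to a transcript. Exons of *Gata5* were the reverse of those of *Gata4*, with 94.1% over 47 exonic and 84.5% over 39 intronic CpGs in WT.

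*Gata6*, at chr18:11052508-11085633 on the plus strand, had the lowest level of the 10 genes around the TSS in WT. It was 1.21% in WT, 0.9745% without *Dnmt3a* and 0.0603% without *Dnmt3b* over 79 CpGs. It was the only gene of the 10 whose TSS level was lower in *Dnmt3b* KO than in *Dnmt3a* KO, but all of these levels are near 0. The interval of *Dnmt3a* KO minus *Dnmt3b* KO was 0.51 to 1.86 percentage points. Against WT it was -1.99 to -0.56 for *Dnmt3b* KO, and for *Dnmt3a* KO it included 0 (-1.04 to 0.859). The exonic CpGs of *Gata6* more than 1 kb from the TSS had 20.4% over 170 CpGs in WT and the intronic CpGs 71.3% over 265. They include the low bins from +1 to +2 kb and from +2 to +3 kb, at 4.74% over 75 CpGs and 9.03% over 85. 1010001N08Rik overlaps the start of *Gata6* and the upstream flank.

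*Foxa2*, at chr2:147868613-147872705 on the minus strand, encodes a forkhead factor of endoderm, node and floor plate. Around the annotated TSS its level was 16.1% in WT, 6.92% without *Dnmt3a* and 12.04% without *Dnmt3b* over 68 CpGs. The share of methylated reads, which gives more weight to CpGs with many reads, differed from WT by -16.7 percentage points in *Dnmt3a* KO (interval -19.7 to -13.8) and by -9.48 in *Dnmt3b* KO (-12.6 to -6.30). The methylation of this window lay upstream of the TSS, with 56.1% from -1 to 0 kb and 2.78% from 0 to +1 kb in WT. The whole body of *Foxa2* was low in WT, at 9.77% over 193 CpGs, and 2.46% of all genes had a lower body. It was 1.97% without *Dnmt3a* and 6.94% without *Dnmt3b*. From +6 to +8 kb, past the end of the gene, a second low stretch had 3.98% and 8.98% in WT, and the non-coding gene 9030622O22Rik starts there.

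*T*, at chr17:8627288-8635361 on the plus strand, encodes Brachyury, the T-box factor needed for posterior mesoderm and notochord. Its TSS window had nearly the same level in the 3 genotypes, at 2.96% in WT, 2.04% without *Dnmt3a* and 2.48% without *Dnmt3b* over 121 CpGs. The interval of the difference was -2.27 to -0.0718 percentage points in *Dnmt3a* KO and -1.34 to 0.868 in *Dnmt3b* KO. A second low stretch of *T* lay from -5 to -4 kb, where no other gene is annotated, with 5.22% in WT, 0.235% without *Dnmt3a* and 1.66% without *Dnmt3b* over 25 CpGs. Between this stretch and the TSS, from -3 to -2 kb, *T* had 61.5% in WT, 26.7% without *Dnmt3a* and 75.9% without *Dnmt3b* over 11 CpGs. The difference in *Dnmt3b* KO, with an interval of 3.46 to 19.3 percentage points, was the largest above WT among the 1-kb bins of the 10 genes, and it stayed within 20 percentage points.

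*Mixl1*, at chr1:182623174-182627165 on the minus strand, encodes a homeobox factor of the streak that is needed for endoderm. Its TSS window had 11.97% in WT, 1.98% without *Dnmt3a* and 10.2% without *Dnmt3b* over 103 CpGs. *Dnmt3b* KO was thus close to WT and *Dnmt3a* KO near 0, and the differences in read share were -13.3 percentage points (interval -15.1 to -11.6) in *Dnmt3a* KO and -3.72 (-5.92 to -1.51) in *Dnmt3b* KO. In the 300 printed bases of *Mixl1* all 36 CpGs could be used, and their mean was 2.06% in WT, 0% without *Dnmt3a* and 1.83% without *Dnmt3b*, so that the methylation of the window lay farther out. The neighbouring bins of *Mixl1*, from -2 to -1 kb and from +1 to +2 kb, had 93.1% and 92.0% in WT.

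*Gsc*, at chr12:105709419-105711537 on the minus strand, encodes Goosecoid, a homeobox repressor of the organizer. It had 4.51% in WT, 0.998% without *Dnmt3a* and 2.85% without *Dnmt3b* over the 135 CpGs around the TSS. The body of *Gsc*, with 8.92% in WT, 1.90% without *Dnmt3a* and 5.86% without *Dnmt3b*, was low as a whole, and 2.29% of all genes had a lower body in WT. Upstream of *Gsc* levels in WT were 14.03% from -1 to 0 kb, 23.7% from -2 to -1 kb, 12.1% from -3 to -2 kb, 37.0% from -4 to -3 kb and 63.3% from -5 to -4 kb. *Dnmt3a* KO ESCs had 1.91%, 1.47%, 0.489%, 4.51% and 22.3% in the same bins of *Gsc*. From -6 to -5 kb, *Gsc* had 71.6% in WT, 8.63% without *Dnmt3a* and 53.6% without *Dnmt3b* over 13 CpGs. The interval of the *Dnmt3a* KO difference in read share was -77.6 to -66.1 percentage points, so that the read share changed more than the mean, at -62.9. Gm10000 starts between -2 and -1 kb of *Gsc* and runs away from it through these bins to -5 kb.

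*Cer1*, at chr4:82527655-82531052 on the minus strand, encodes Cerberus, which binds NODAL and BMP proteins outside the cell. It was the only gene of the 10 with a highly methylated start. The 29 CpGs within 1 kb of the TSS had 91.4% in WT, 45.2% without *Dnmt3a* and 90.6% without *Dnmt3b*. The difference in read share was -40.1 percentage points in *Dnmt3a* KO (interval -44.2 to -35.7) and -1.35 in *Dnmt3b* KO (-4.59 to 1.62). A larger difference from WT was seen at 7.17% of all genes without *Dnmt3a* and at 85.5% without *Dnmt3b*, while 84.8% of all genes had a lower level in WT.

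The loss at *Cer1* was uneven along the gene. Upstream, from -2 to -1 kb, it went from 85.9% in WT to 25.6% in *Dnmt3a* KO, and from -1 to 0 kb from 89.4% to 22.9%, with intervals of -66.9 to -50.2 and -68.8 to -51.5 percentage points. From 0 to +1 kb it went from 92.2% to 55.3%, and the bins of *Cer1* from -10 to -2 kb had 63.3% to 78.2% in *Dnmt3a* KO. The 5 CpGs of the printed *Cer1* sequence had a mean of 91.8% in WT, 24.9% without *Dnmt3a* and 83.8% without *Dnmt3b*. At -250 bp, 13 of 22 reads were methylated in WT, 0 of 18 without *Dnmt3a* and 4 of 10 without *Dnmt3b*. At -175 bp the counts were 24 of 24, 5 of 22 and 20 of 22, and at -7 bp they were 14 of 14, 4 of 24 and 20 of 20. All 5 CpGs of the printed sequence were called hypomethylated in *Dnmt3a* KO ESCs by the rule for single CpGs given further on. In *Dnmt3a* KO 9.11% of the CpGs in the TSS windows of all genes and 25.7% of all CpGs were called. These shares include CpGs that are too low in WT to be called, and none was taken over methylated CpGs alone. In *Dnmt3b* KO ESCs 0 of the 5 were called, against 2.16% of all CpGs.

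*Lefty1*, at chr1:182865153-182868531 on the plus strand, encodes a secreted protein that blocks NODAL and its receptor complex and is itself induced by NODAL. Its start had a level between those of the other genes and of *Cer1*, with 29.7% in WT, 4.27% without *Dnmt3a* and 14.3% without *Dnmt3b* over 32 CpGs. The difference in read share was -21.8 percentage points in *Dnmt3a* KO (interval -25.3 to -18.3) and -14.1 in *Dnmt3b* KO (-18.0 to -10.1). *Lefty1* thus had the largest difference of the 10 genes in *Dnmt3b* KO ESCs, although it did not pass the limit, and 6.34% of all genes had a larger one. In the body of *Lefty1* the levels were 34.6%, 6.79% and 19.02% over 80 CpGs, and 3.59% of all genes had a larger difference in *Dnmt3b* KO. From +3 to +4 kb, a bin that spans the end of *Lefty1*, the level fell in both KOs, from 78.6% to 32.0% in *Dnmt3a* KO and to 52.1% in *Dnmt3b* KO ESCs, with an interval of -28.1 to -14.1 percentage points for the latter.

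Within the TSS window of *Lefty1*, 3 neighbouring CpGs at -336, -334 and -331 bp had 0 methylated reads of 32, 35 and 36 in WT, whereas the CpG at -1 bp had 15 of 28 in WT, 0 of 33 without *Dnmt3a* and 6 of 17 without *Dnmt3b*. A CpG at -653 bp was called hypomethylated in both KOs, with 14 of 20 methylated reads in WT, 0 of 11 without *Dnmt3a* and 0 of 21 without *Dnmt3b*. *Lefty1* has a close paralogue, *Lefty2*, on the same chromosome, and how the aligner divided reads between stretches that are alike in both was not checked.

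**Figure D2:**
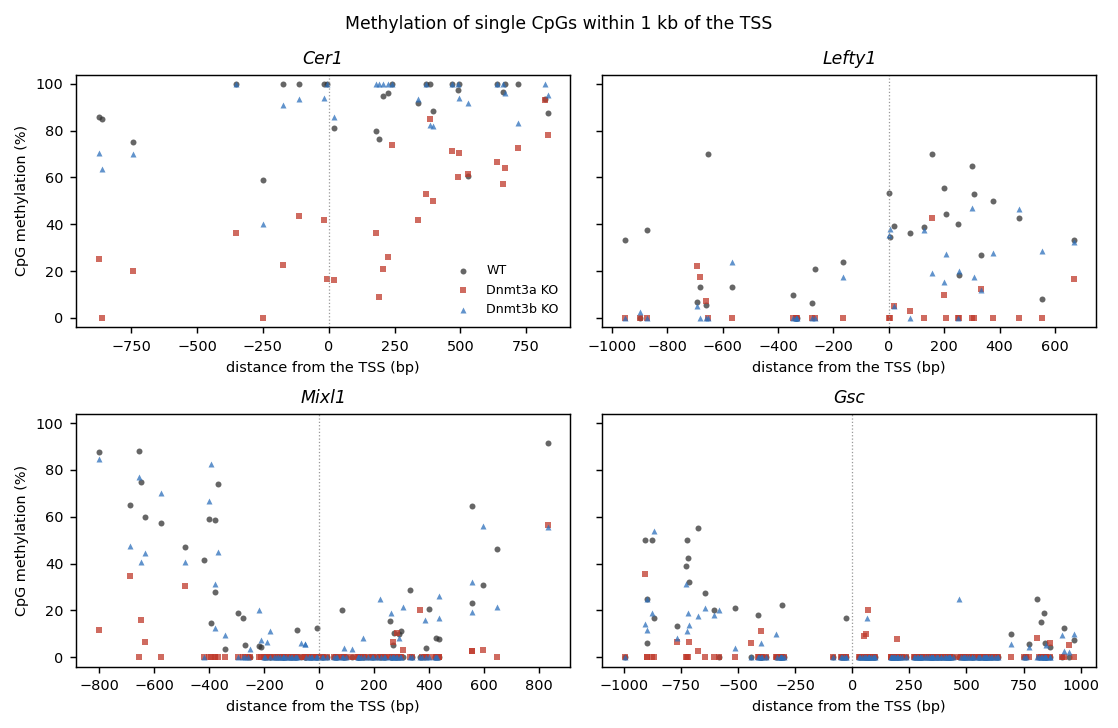
Methylation (y axis, %) of single CpGs against their distance from the TSS (x axis, bp) for *Cer1*, *Lefty1*, *Mixl1* and *Gsc*, with WT as circles, *Dnmt3a* KO as squares and *Dnmt3b* KO as triangles. At *Cer1* the squares lie mostly below the other symbols, at *Lefty1* most of them lie near 0, and at *Mixl1* and *Gsc* most CpGs near the TSS are near 0 in all 3 genotypes.

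Beyond the TSS most of the 10 genes lost methylation in *Dnmt3a* KO ESCs. In gene bodies 6 of 10 fell by more than 20 percentage points (all genes 89.3%), namely *Gata3*, *Gata4*, *T*, *Mixl1*, *Cer1* and *Lefty1*. The body of *Gata4* went from 76.2% to 41.0%, with an interval of -36.9 to -34.7 percentage points, while *Foxa2* and *Gsc* were already under 10% in WT and could not fall by that much. The body of *Mixl1* was just past the limit at -20.04 percentage points and that of *Gata5* just short of it at -19.5. In the upstream flank 8 of 10 fell (all genes 88.8%), all but *Gata3* and *T*, and in the downstream flank 10 of 10 fell (all genes 92.9%). The 10 genes started lower, with WT medians of 47.2% in the body, 42.7% upstream and 83.6% downstream. Over all genes these were 80.4%, 72.5% and 87.8%. When flanks of 5 kb were used in place of 10 kb, 5 of 10 genes fell in the upstream flank (all genes 78.5%) and 8 in the downstream flank (all genes 91.4%), where *Foxa2* went from -20.7 to -13.999 percentage points and *Lefty1* from -21.2 to -11.9. *Foxa2* was also short of the limit downstream by the share of methylated reads, at -18.7, and with at least 1 read per CpG, at -19.8. The body of *Gata3* was short of it, at -19.2, with the outermost transcript limits. Other genes passed the limit only under an alternative. The upstream flank of *T*, at -15.9 percentage points, was at -21.8 by the share of methylated reads, at -22.7 with at least 10 reads per CpG and at -24.7 without the 1 kb next to the TSS, and that of *Gata3*, at -10.2, was at -33.8 with the outermost transcript limits. The body of *Gata5* was at -23.4 by the share of methylated reads and at -34.1 without TSS ± 1 kb, and that of *Gata6*, at -17.9, was at -22.6 with at least 10 reads per CpG and at -20.2 without TSS ± 1 kb.

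In *Dnmt3b* KO ESCs 0 of 10 genes fell by more than 20 percentage points in the body (all genes 1.24%), the upstream flank (0.385%) or the downstream flank (0.456%). All 10 genes were below WT by some amount in all 4 windows in both KOs. This was so for nearly all genes, with shares in *Dnmt3a* KO and *Dnmt3b* KO of 98.6% and 94.7% at the TSS, 99.7% and 98.4% in the body, 100% and 99.8% in the upstream flank and 100% and 99.7% in the downstream flank. The largest in *Dnmt3b* KO were -15.5 percentage points in the body of *Lefty1*, -9.02 in the upstream flank of *Gata6* and -9.58 in the downstream flank of *Foxa2*, and the smallest was -0.0466 in the downstream flank of *Gata5*. Set directly against each other, *Dnmt3a* KO was more than 20 percentage points below *Dnmt3b* KO at the TSS of 1 gene, *Cer1* (all genes 31.7%), in the body of 3 (73.5%), in the upstream flank of 4 (67.9%) and in the downstream flank of 8 (78.3%). Without the 1 kb next to the TSS, the counts were 6 for bodies (all genes 89.1%) and 7 for upstream flanks (all genes 83%).

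**Figure D3:**
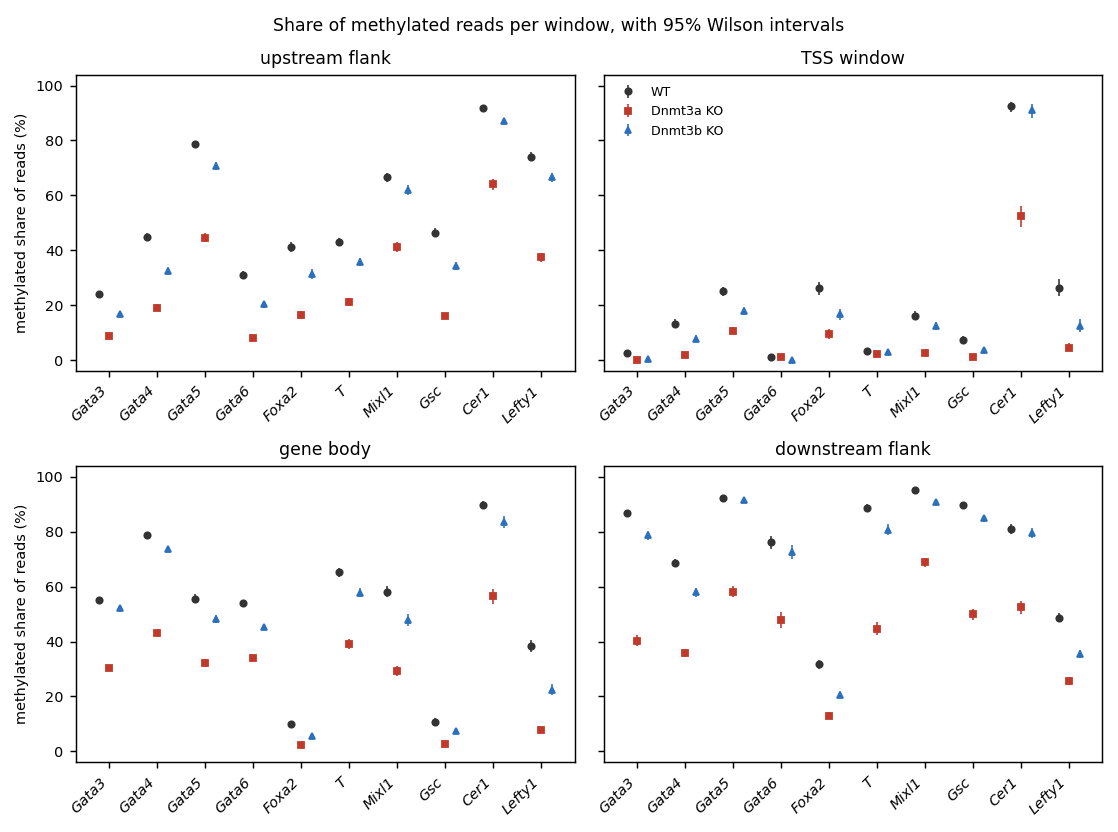
Share of methylated reads (y axis, %) of each of the 10 genes in the upstream flank, the TSS window, the gene body and the downstream flank, with WT as circles, *Dnmt3a* KO as squares and *Dnmt3b* KO as triangles. Bars are 95% Wilson intervals of the reads of 1 merged table, count each read over each CpG as independent and cover at most counting error. The squares lie under both other symbols in nearly every window, and *Gata6* at the TSS, where all levels are near 0, is an exception.

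The surroundings of these genes differed from those of other genes already in WT. The median over the 10 genes was 46.0% from -3 to -2 kb, 27.2% from -2 to -1 kb and 43.1% from +1 to +2 kb, against 90.0%, 87.9% and 83.6% over all protein-coding genes. At 6 kb or more from the TSS the medians of the 10 genes were between 82.5% and 91.7%, close to those of all genes, which were between 90.6% and 91.4%. The genes were not alike in this. *Gata5*, *Mixl1* and *Cer1* had 77.7% or more in both bins next to the TSS window, from -2 to -1 kb and from +1 to +2 kb, whereas *Gata3*, *Gata6*, *Foxa2*, *Gsc* and *Lefty1* had 38.4% or less in both.

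Of 187 bins of 1 kb with at least 5 CpGs, 139 fell by more than 20 percentage points in *Dnmt3a* KO (bins of all genes 84.1%) and 8 in *Dnmt3b* KO ESCs (7.52%). Bins under 50% methylation numbered 58 in WT, 121 without *Dnmt3a* and 64 without *Dnmt3b*, and those under 10% numbered 23, 50 and 31. Over the bins of all genes 13.7%, 52.2% and 17.6% were under 50%, and 6.52%, 13.3% and 8.23% under 10%. The largest drop in *Dnmt3a* KO lay upstream of *Cer1*, followed by that from -6 to -5 kb of *Gsc*. The bin of *Gata3* from +2 to +3 kb went from 79.7% in WT to 21.3% in *Dnmt3a* KO and stayed at 76.1% in *Dnmt3b* KO ESCs. Among the bins that fell in *Dnmt3b* KO, *Gata3* had 95.6% in WT and 69.0% in *Dnmt3b* KO from +7 to +8 kb, and *Foxa2* had 34.6% and 11.2% from +8 to +9 kb, with intervals of -33.2 to -19.8 and -30.5 to -22.8 percentage points. Levels above WT were seen in 27 bins in *Dnmt3b* KO (bins of all genes 11.2%) and in 2 bins in *Dnmt3a* KO (0.795%), the latter being *T* from -1 to 0 kb and *Gata6* from 0 to +1 kb, where every level was under 2%.

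**Figure D4:**
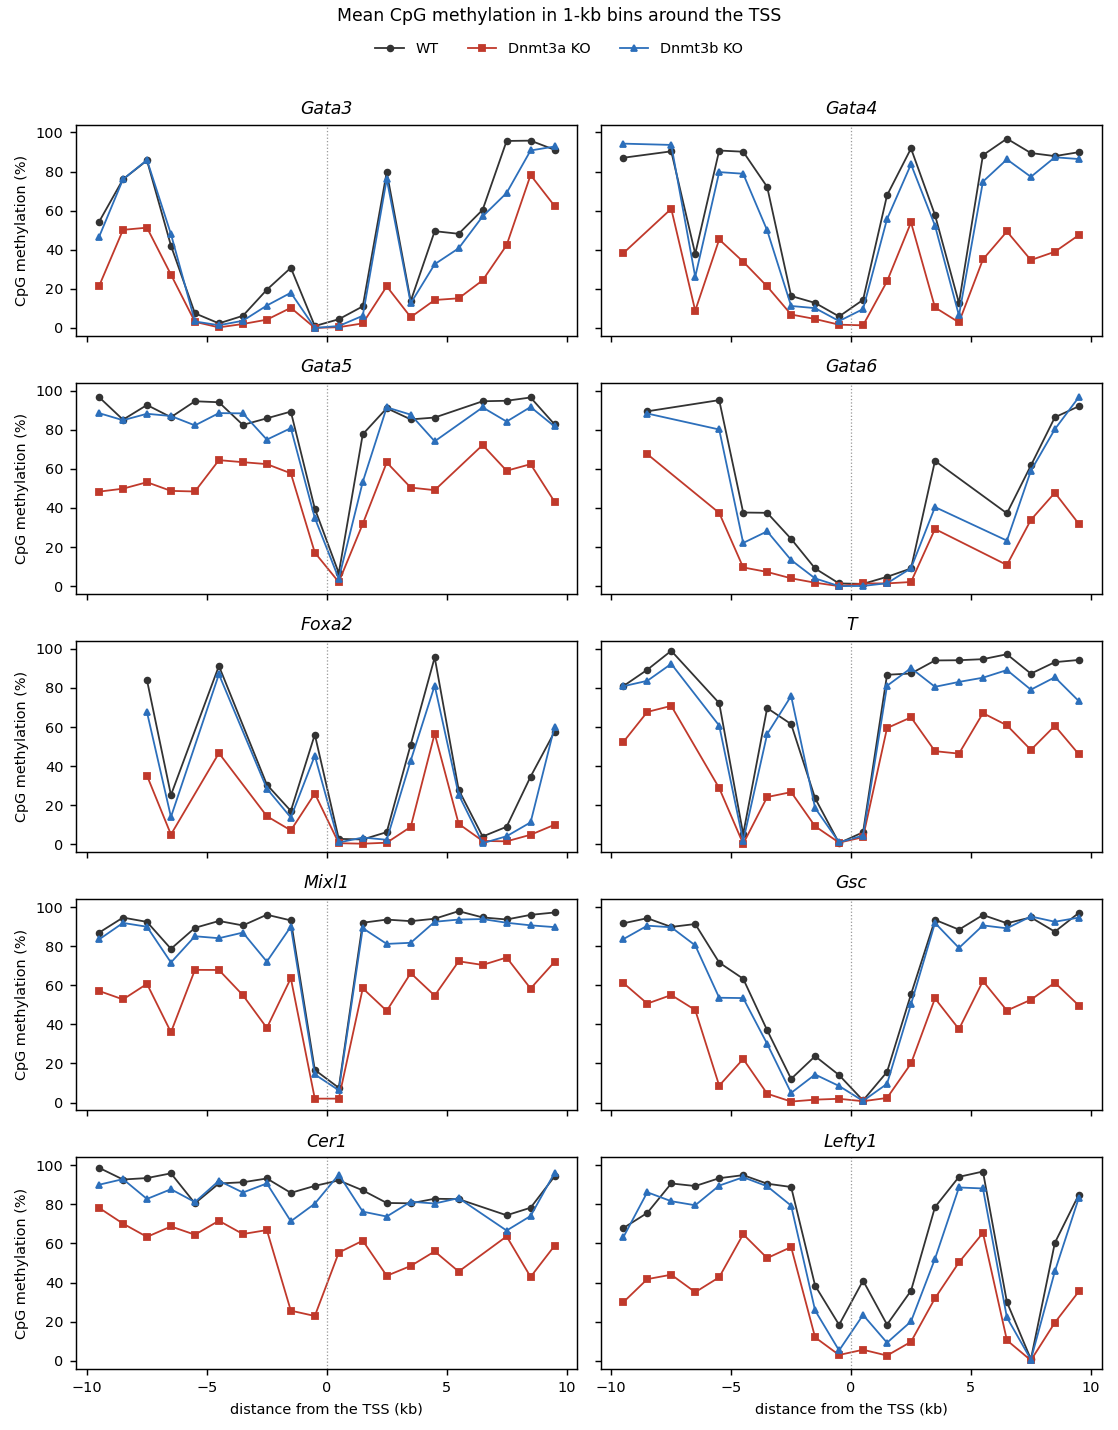
Mean CpG methylation (y axis, %) in 1-kb bins against the distance from the TSS (x axis, kb) for each of the 10 genes, with WT as circles, *Dnmt3a* KO as squares and *Dnmt3b* KO as triangles and bins with fewer than 5 CpGs left out. Low stretches around the TSS of all genes but *Cer1* are seen in the 3 genotypes, and outside them *Dnmt3a* KO lies well below WT while *Dnmt3b* KO stays within 20 percentage points of WT in all but 8 bins.

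To compare the extent of the low-methylated stretch at the TSS, a block was defined as the run of CpGs whose running mean over 5 CpGs was under 10% in a genotype. A block was found for 9 of the 10 genes in each genotype (all genes 62.4% in WT, 68.2% without *Dnmt3a* and 64.1% without *Dnmt3b*), and *Cer1* had none. With a limit of 20% in place of 10%, *Cer1* had a block of 1052 bp in *Dnmt3a* KO and still none in WT or *Dnmt3b* KO. In *Dnmt3a* KO ESCs the block was longer than in WT at 9 of 9 genes (all genes 96.7%), and in *Dnmt3b* KO ESCs at 7 of 9 (all genes 87.5%), with *Gata5* and *Mixl1* slightly shorter. The medians over the 9 genes with a block were 1261 bp in WT, 2662 bp without *Dnmt3a* and 1668 bp without *Dnmt3b*, and those over all genes were 998 bp, 1642 bp and 1221 bp. The block of *Gsc* was 1261 bp in WT, 2906 bp without *Dnmt3a* and 1668 bp without *Dnmt3b* and grew on both sides. For *Foxa2* the lengths were 1447 bp, 3273 bp and 3074 bp, and for *Gata3* they were 1736 bp, 3256 bp and 3048 bp, so that both KOs were alike in block length at these genes. The WT block of *Foxa2* started at +253 bp and did not cover the TSS. With a limit of 20% in place of 10%, WT was closer to the KOs. The lengths were then 3046 bp, 3473 bp and 3092 bp for *Foxa2* and 2930 bp, 3633 bp and 3200 bp for *Gata3*. *Gata4* had 839 bp, 2332 bp and 1344 bp. With at least 10 reads per CpG it had 1419 bp, 3610 bp and 1082 bp, so that its *Dnmt3b* KO block was then shorter than in WT. The smallest increases in *Dnmt3a* KO were those of *Mixl1*, at 714 bp, 1047 bp and 706 bp, *Gata5*, at 776 bp, 1253 bp and 697 bp, and *T*, at 2083 bp, 2662 bp and 2461 bp. At *Lefty1* the block was 7 bp in WT, made of the 3 unmethylated CpGs named above, 1297 bp without *Dnmt3a* and 1018 bp without *Dnmt3b*, and in *Dnmt3b* KO it ended at -278 bp, short of the TSS. With a running mean of 9 CpGs there was no WT block at *Lefty1* and the *Dnmt3a* KO block was 3449 bp, and with at least 10 reads per CpG the block was 587 bp in WT, so that these lengths depend on the definition. *Gata6*, at 2381 bp, 3832 bp and 3613 bp, reached 3.5 kb, the length from which under-methylated regions are called canyons, in both KOs. The authors detected such regions using a Hidden Markov Model, so that the blocks here are not canyon calls. In WT, too, the 1-kb bins of *Gata6* from -2 to +3 kb were low, at 1.14% to 9.03%. The *Gata6* block ran from -1342 to +1038 bp in WT, -3150 to +681 bp without *Dnmt3a* and -1362 to +2250 bp without *Dnmt3b*. The KO blocks thus extended on different sides. Without *Dnmt3a* the block ended before the WT end, although the bins from +1 to +2 kb and +2 to +3 kb had 1.39% and 2.10% there. Blocks of 3.5 kb or more made up 0.696% of all blocks in WT, 6.33% without *Dnmt3a* and 1.78% without *Dnmt3b*. Among the 10 genes no other block reached it under this definition, but with at least 10 reads per CpG those of *Gata3* (3575 bp) and *Gata4* (3610 bp) did so in *Dnmt3a* KO, and with a limit of 20% in place of 10% *Gata6* did so in WT (4157 bp).

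**Figure D5:**
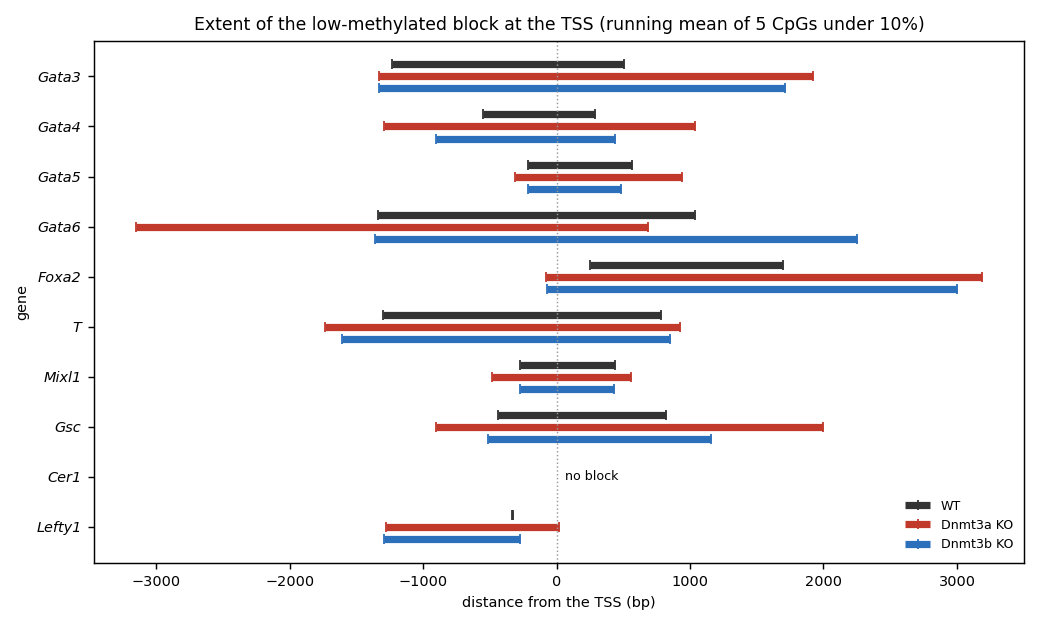
Extent of the low-methylated block of each gene relative to the TSS (x axis, bp) in WT (top bar), *Dnmt3a* KO (middle bar) and *Dnmt3b* KO (bottom bar). The *Dnmt3a* KO bar is longer than the WT bar at all 9 genes with a block, and *Cer1* has no bar.

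Single CpGs were called hypomethylated when the 95% credible interval of the difference from WT lay entirely beyond 0.2. In *Dnmt3a* KO ESCs 1058 of the 5300 CpGs of the 10 loci (19.96%) were called hypomethylated, against 25.7% of all CpGs, and 0 were called hypermethylated (all CpGs 0.00671%). In *Dnmt3b* KO ESCs 87 CpGs (1.64%) were called, against 2.16% of all CpGs. The share in *Dnmt3a* KO ranged from 10.3% of CpGs at *Foxa2* to 25.9% at *Gata4*, and that in *Dnmt3b* KO from 0.840% at *Cer1* to 3.00% at *Lefty1*. In the TSS windows, 15 of 29 CpGs of *Cer1* and 5 of 32 CpGs of *Lefty1* were called in *Dnmt3a* KO, but 0 of 84 of *Gata3* and 0 of 79 of *Gata6*, against 9.11% of the CpGs in the TSS windows of all genes. Only CpGs above 0.2 in WT can be called, and 51.8% of all genes were under 20% around the TSS in WT. *Dnmt3a* KO was called below *Dnmt3b* KO at 737 CpGs (13.9%, all CpGs 16.9%) and above it at 1 CpG (all CpGs 0.056%), in the upstream flank of *Gata3*. The rule asks for a large difference, and Fisher's exact test on the reads with Benjamini-Hochberg adjustment and a difference of more than 0.2 called 1974 CpGs in *Dnmt3a* KO (all CpGs 48.9%) and 169 in *Dnmt3b* KO ESCs (3.88%). Both rules compare the merged tables and not replicates.

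In *Dnmt3b* KO ESCs 5 CpGs (0.0943%) were called hypermethylated, against 0.0681% of all CpGs, at *Gata3*, *Gata4*, *Foxa2*, *Mixl1* and *Gsc*. The CpG of *Mixl1* lay at -394 bp and had 4 of 27 methylated reads in WT, 0 of 16 without *Dnmt3a* and 14 of 17 without *Dnmt3b*. That of *Foxa2*, at +3038 bp, had 0 of 16, 0 of 19 and 11 of 22. At *Gsc* the CpG at +1508 bp had 1 of 14, 0 of 7 and 10 of 14, so that *Dnmt3a* KO was not above WT at any of these 3 CpGs.

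When a minimum of 10 reads per genotype was set, 3855 CpGs were left in the 10 loci, and the share with 80% methylation or more was 49.8% in WT, 8.66% without *Dnmt3a* and 42.4% without *Dnmt3b*. Over all CpGs with a WT value these shares were 80.2%, 16.8% and 65.8%. CpGs under 20% made up 29.2%, 45.9% and 33.6% in the 10 loci and 5.90%, 15.8% and 7.51% over all. *Foxa2* had the most CpGs under 20% in *Dnmt3a* KO, 80.2%, and *Cer1* the fewest, 12.5%.

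The TSS window was also examined in 35 other genes of mesendoderm and NODAL signalling, of which 21 have a value in WT. Around the TSS of these 21 genes the median was 11.2% in WT, 2.69% without *Dnmt3a* and 6.72% without *Dnmt3b*, and 14 were under 20% in WT (all genes 51.8%). The medians over all genes were 18.1%, 5.05% and 12.6%. All 21 were below WT in *Dnmt3a* KO (all genes 98.6%), and 5 of 21 fell by more than 20 percentage points (all genes 41.3%). *Lefty2*, the paralogue of *Lefty1*, fell most, from 82.5% in WT to 15.3% in *Dnmt3a* KO, and had 70.9% in *Dnmt3b* KO ESCs, with intervals of -70.3 to -64.1 and -15.7 to -8.55 percentage points. *Hhex*, a homeobox gene of anterior endoderm, had 83.9%, 37.6% and 61.7%, and *Msgn1*, a bHLH factor of presomitic mesoderm, had 91.5%, 48.4% and 78.3%. *Hnf4a* and *Bmp4*, named after their values were seen, were the other 2, at -38.6 and -22.7 percentage points in *Dnmt3a* KO. For *Bmp4* the interval in read share, -20.4 to -13.8 percentage points, lay mostly short of the limit, so that its call rests on the mean. *Hhex* was also the only 1 of the 21 to fall in *Dnmt3b* KO (all genes 2.63%), where its read share, with an interval of -21.9 to -14.1 percentage points, changed less than its mean.

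*Nodal*, the ligand that CER1 and LEFTY1 bind, was low at the TSS like most of the 10 genes, with 7.73% in WT, 1.52% without *Dnmt3a* and 2.55% without *Dnmt3b*. The smallest differences in *Dnmt3a* KO were those of *Lhx1*, at -0.523 percentage points, *Smad2*, at -0.658, and *Foxa1*, at -0.659, all of which had 1.32% or less in WT. Of the 14 genes with values in the KOs only, 1 had a *Dnmt3a* KO level more than 20 percentage points below its *Dnmt3b* KO level (31.7% of all genes with a WT value), *Gata1*, the erythroid GATA factor, at 29.1% and 76.7%, which was also named after its values were seen.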

How the data were processed

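The WGBS data covered 9 libraries of J1 ESCs, 3 per genotype. The authors mapped reads to mm9 using BSMAP, corrected biases using BSeQC and merged the libraries of a genotype. The deposited counts of methylated reads per CpG and the deposited coverage, the number of all reads, come from mCall of MOABS and were not normalized by the authors. The ratio, a fraction of methylated reads, was calculated and rounded by the authors. The incomplete last row of the WT table was left out.

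Genes were taken from GENCODE (mm9), with the protein-coding transcript of the longest spliced length. A level is the mean ratio over the CpGs that had 3 or more reads in each genotype, over TSS ± 1 kb, the body, flanks or bins, and windows of fewer than 5 CpGs were not counted. Counts above 200 reads were scaled down to 200 for credible intervals. Blocks were broken at gaps over 1000 bp. Median depth over the 10 loci was 20, 18 and 21 reads. The scripts were tested on simulated data. Python 3.11.15, NumPy 2.4.6, SciPy 1.17.1, numba 0.67.0, pysam 0.24.0 and matplotlib 3.10.9 were used. All 10 genes are named, and of 35 further genes the 3 lowest and 3 highest differences in *Dnmt3a* KO, *Lefty2* and *Nodal*. *Hnf4a*, *Bmp4* and *Gata1* were named after their values were seen. The 10 genes are listed by name, but the list, the other lists and the limits were chosen with earlier results of these data known. Alternatives covered reads per CpG, weighting, windows, limits, depth and block settings.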

Additional observations from a re-analysis of the deposited data

How the results depend on the processing

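No paired analysis was possible because the libraries of a genotype are merged into 1 table, and for the same reason no library could be left out. *Cer1* and *Lefty1* fell at the TSS in *Dnmt3a* KO under all 7 alternatives, at -52.1 to -40.1 and -29.8 to -21.8 percentage points. However, the outermost transcript limits differ from those used only at *Gata3* and *Gata4*. At the other genes, *Cer1* and *Lefty1* included, this alternative repeats the main window, and its values add to the unchanged ones counted below. Of 520 values of a KO against WT, 515 were below 0; the others were *T* and *Gsc* in both KOs at TSS ± 500 bp, and *Gata5* in *Dnmt3b* KO in a downstream flank of 5 kb, at 0.0106 to 1.955 percentage points. All 267 values of called differences kept their sign, but every alternative used the same merged tables, and those that repeat the main window could not change. Sizes were less stable than signs. Changes in window differences, medians and bins were judged against the width of a Newcombe interval. The factor given for block lengths below was not used for them. Window differences moved in 217 cases and did not in 563. Medians over the 10 genes moved in 24 cases and did not in 54, and bins moved in 74 and did not in 1398. CpG calls per gene, judged by the factor given for block lengths below, moved in 74 cases and did not in 166.

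Shares in parentheses are those of all genes or CpGs under the same setting. With a limit of 10 percentage points, 1 gene was lower at the TSS (16.9%) and 1 in the body (16.2%) in *Dnmt3b* KO, and *Dnmt3a* KO was below *Dnmt3b* KO at 2 TSS windows (44.2%), 8 bodies (92.6%) and 9 upstream flanks (96.6%). With 30, the genes lower in *Dnmt3a* KO were 1 at the TSS (28.6%), 2 in bodies (59.5%), 2 upstream (55.2%) and 5 downstream (67.8%), and *Dnmt3a* KO was below *Dnmt3b* KO in 0 bodies (16.2%), 1 upstream flank (18.1%) and 4 downstream flanks (29.0%). Outermost transcript limits gave 2 TSS windows in the direct comparison (31.6%), bodies without TSS ± 1 kb gave 6 (89.1%), upstream flanks without the 1 kb next to the TSS gave 7 (83%), and flanks of 5 kb gave 1 upstream there (57.1%) and 5 against WT in *Dnmt3a* KO (78.5%).

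Fisher's exact test called 1974 CpGs lower (48.9%) and 3 higher (0.0767%) in *Dnmt3a* KO, 169 lower (3.88%) and 14 higher (0.214%) in *Dnmt3b* KO, 1385 with *Dnmt3a* KO below *Dnmt3b* KO (33.7%) and 10 the other way (0.299%). The 99% credible interval called 40 lower (1.01%) and 3 higher (0.0152%) in *Dnmt3b* KO, and 443 (10.1%) and 0 (0.015%) in the direct comparison. Of the 10 loci 5300 CpGs were tested. Block lengths moved by more than 1.5 times in 21 of 90 cases, and with a running mean of 9 CpGs the *Dnmt3a* KO block of *Gsc* was 6209 bp and that of *Gata4* 3812 bp. The WT block of *Lefty1* was 7 bp, and 587 bp, 587 bp or 0 bp under the 3 alternatives. With a limit of 20%, the *Dnmt3a* KO blocks of *Gata3*, *Gata4*, *Gata6*, *Gsc* and *Lefty1* were 3633 to 6485 bp, and *Cer1* had one of 1052 bp.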
